A study of Mus musculus with 89 samples.

Results

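Stroma regions of mouse squamous cell carcinoma after relapse were compared with stroma regions of tumours before treatment. The segments were those that the authors' annotation places in stroma on the relapse slide (14 segments) or on the naive slide (15 segments), together 29 of the 89 segments of the series. A segment is a stained area of a fresh frozen section from which ultraviolet light released the RNA-bound tags of a whole-transcriptome panel (GeoMx), and areas were chosen on images for their morphology and stain. The series asks how neutrophils in different parts of the tumour respond to immunotherapy, and every segment is labelled neutrophil. The naive slide is annotated as before treatment, and its scan name holds the words naive UP HRass. The relapse slide is annotated as after treatment, and its scan name holds the words DMBA Relapse, while its slide name is treated. HRas is an oncogene and DMBA a chemical carcinogen, so the scan names point to different tumour models, and whether the groups share one was not settled here. The drug, the age of the mice and their number are not given in the sources used here. The naive segments were collected on plate G and the relapse segments on plate H without exception, so stage, slide, plate and tumour model cannot be told apart in this comparison.

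Tumour stroma is the connective tissue around tumour nests. Fibroblasts there secrete fibrillar collagens and the enzymes that remodel them, macrophages clear debris and handle lipids, antigen-presenting cells carry MHC class II, and B cells and plasma cells make immunoglobulin. Keratins are the filament proteins of epithelial cells, the cells from which squamous carcinoma arises, and neutrophils are short-lived phagocytes that carry S100a8 and S100a9 in their cytoplasm. A segment is a bulk sample, so fewer cells of a type and less RNA per cell cannot be told apart.

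In brief, relapse stroma had more immunoglobulin mu heavy chain RNA (Ighm) and more RNA of 4 keratins (Krt14, Krt6a, Krt6b and Krt16) than naive stroma. It had less RNA of fibrillar collagens and other matrix genes, of the lipid carrier Apoe, of Hp and of the MHC class II genes Cd74 and H2-Aa. The Ighm and keratin differences were also present at the tumour interface of the same slides. Fitted differences of the collagens and Apoe at the interface were -0.10 for Col1a1, -0.02 for Col3a1 and 1.01 for Apoe on the log2 scale. The stroma calls rested on few pieces of tissue, and leaving out 1 piece gave 0 to 29 calls. In 29 fits that each left out 1 segment, the Cd74 call held in 7 and those of H2-Aa and Krt16 in 8 each. Stage cannot be told apart from slide, plate and tumour model.

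Depth, counted as the sum of tag counts above the floor of 1 count, was 1807 to 20415 in relapse stroma (median 3964) and 3124 to 96548 in naive stroma (median 10736). Mean log2 depth was lower in relapse by 1.68 (log2 difference -1.68, p = 0.00424, two-sided permutation test over 29 segments with 100000 permutations). With 1 mean per tissue piece it was -1.87 and missed the threshold (p = 0.0571, exact permutation test of 4 against 4 pieces). Per nucleus the difference was -1.31 (p = 0.0043, permutation test over segments). The mean number of nuclei per segment was 57.9 in relapse and 72.3 in naive stroma. Relapse segments were also smaller, with a median area of 1484.5 against 4137.7 in naive stroma, in the units of the annotation. Depth per area was not tested. At the median depth 1 count was worth 2.52 counts per 10000 in relapse and 0.931 in naive segments, so low targets were closer to the floor in relapse. A median of 589 targets exceeded the limit of quantitation in relapse and 1646 in naive stroma. Tests therefore carried log2 depth as a covariate. Values below are tag counts above the floor per 10000 such counts of the segment, unless they are called fitted differences. A fitted difference is relapse minus naive in log2 of the deposited signal plus 1, at equal depth, and it understates the change of low targets.

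The neutrophil label was checked against 20 neutrophil genes on the panel. Only 3 of them (S100a8, S100a9 and Fcgr4) exceeded the limit of quantitation in enough segments to be tested, and the other 17, Ly6g, Csf3r, Cxcr2, Mpo and Elane among them, exceeded it in 2 or fewer of the 29 segments. S100a8, an alarmin subunit, ranged from 0 to 8.03 with a median of 4.08 in relapse and from 0 to 6.16 with a median of 0.975 in naive stroma. Its fitted difference was 0.50 (SE 0.310, limma adjusted p = 0.829) and did not pass the test. S100a9, its partner, had medians of 1.99 and 1.59. The neutrophil granule and receptor genes were thus at or near the floor. Most targets missed the same limit, since 6220 of the 19962 on the panel were tested. The 20 genes together took a median of 0.102% of counts in relapse and 0.0953% in naive stroma. Which cells the RNA of these segments came from was not tested.

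Of 6220 targets tested with limma, 18 passed an adjusted p of 0.05 (0.289%), 5 of them higher in relapse (0.0804%) and 13 lower (0.209%). At an unadjusted p of 0.05, 413 passed (6.64%), 48 higher (0.772%) and 365 lower (5.87%). The median fitted difference over all tested targets was -0.09. Segments share animals, slides and tissue pieces, so these p-values are too small, and they measure only the spread between segments. With counts per 10000 as the scale, 9 targets were higher and 13 lower, and with scaling to the same total and no depth covariate 9 were higher and 83 lower. The count of calls rested on few pieces of tissue. The annotation names no pieces, so segments were joined by their position on the scan, in a step added after seeing the data, which gave 4 pieces with stroma segments on each slide. Without naive piece 3 (6 segments) limma called 0 targets (466 at an unadjusted p of 0.05), without relapse piece 3 (9 segments) it called 1, which was Ighm, without relapse piece 1 it called 8, without relapse piece 4 it called 11, and without naive piece 5 it called 29. Leaving out single segments gave 7 to 26 calls, with 11 or fewer without naive segment 7, 10, 11, 12, 14 or 15 or without relapse segment 2, 5, 6, 9 or 10. Of the 948 fitted differences of named targets over these and the other alternatives, 0 changed sign. All named targets but Igkc had passed the threshold in these same segments, and most alternatives refit the same data. A change of sign was therefore unlikely from the start.

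Ighm encodes the constant region of the mu heavy chain, the heavy chain of IgM, and lies on chromosome 12 (GRCm38 chr12:113418826-113422730). In naive stroma it ranged from 0 to 3.20 with a median of 0.550. In relapse stroma it ranged from 0 to 522 with a median of 14.8. In 12 of 14 relapse segments the value was above the highest naive segment, and the other two, relapse segments 3 and 8, had no count above the floor. The fitted difference was 3.09 (SE 0.506, limma adjusted p = 3.5e-05). It was above 0 in each alternative fitted, from 2.32 to 3.77, and passed the threshold in 18 of 21 alternatives and without each of the 29 segments. The rise was uneven within the slide. Relapse segment 10 stood at 522, segment 1 at 448, segment 9 at 141 and segment 6 at 129, while the remaining 10 relapse segments were at 48 or below. By tissue piece the mean was 295 in relapse piece 1 (2 segments), 129 in piece 4 (1 segment), 71.8 in piece 3 (9 segments) and 7.56 in piece 2 (2 segments), against 0.494 to 1.30 in the naive pieces. With 1 mean per piece the fitted difference was 3.55 and limma's adjusted p was 0.774.

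Igkc encodes the constant region of the kappa light chain (GRCm38 chr6:70726435-70726754), which pairs with heavy chains of any class. In naive stroma it ranged from 0 to 260 with a median of 0, and in relapse stroma from 0 to 362 with a median of 3.15. The fitted difference was 1.92 (SE 0.655, limma adjusted p = 0.348) and did not pass the test. The 4 relapse segments with the most Ighm were also the 4 with the most Igkc, at 362 in segment 10, 260 in segment 1, 82 in segment 9 and 75.4 in segment 6. Naive stroma had an Igkc-rich segment of another make-up. Naive segment 3 held 260 Igkc but 0.518 Ighm, with 394 of the alpha heavy chain gene Igha and 40.5 of Jchain, which encodes the chain that joins IgA and IgM into polymers. Naive segment 7 likewise held 56.8 Igkc, 43.8 Igha and 1.18 Ighm. The highest Igha value in relapse was 27.7, in segment 1. Naive segments rich in light chain thus carried alpha and relapse segments rich in light chain carried mu heavy chain RNA, which is a description of 6 segments with no test. Over the alternatives the Igkc difference ranged from 0.67 to 3.25 and passed in 2 of 21, and it passed in 0 of the 29 fits without 1 segment (limma adjusted p 0.0738 to 0.919).

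**Figure D1:**
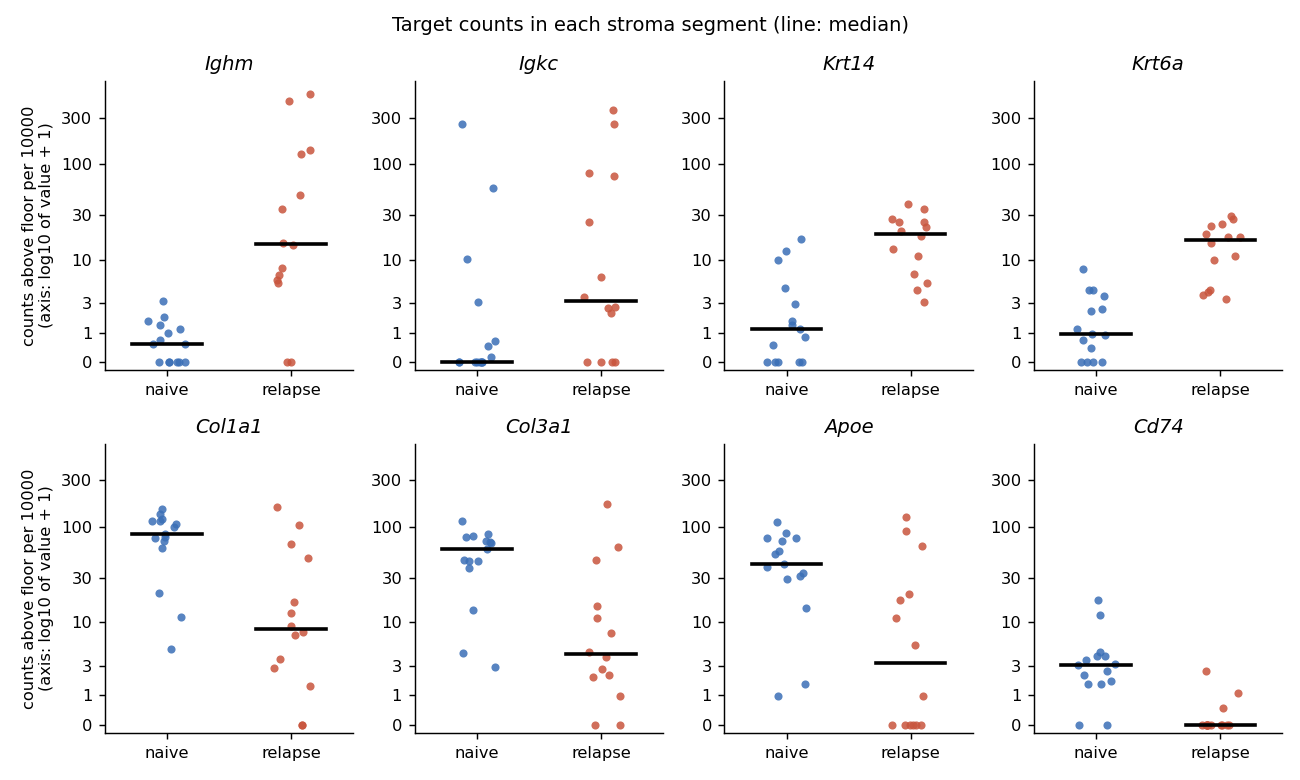
Tag counts above the floor per 10000 in each naive (15) and relapse (14) stroma segment for 8 targets, on an axis of log10(value + 1), with a line at the median. Ighm lies at or below 3.20 in all naive segments and above that in 12 of 14 relapse segments, and Igkc is high in a few segments of both groups.

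The wider B-cell and plasma-cell list held 12 tested genes, of which 1 was higher (Ighm) and 0 were lower. The median fitted difference of the list was -0.01, beside -0.09 for all tested targets. Jchain had 0.78 (SE 0.392, adjusted p = 0.752). The plasma-cell regulators Xbp1 (0.05), Irf4 (0.32) and Pou2af1 (-0.13) and the plasma-cell receptor Tnfrsf17 (0.29) did not pass either. The summed share of the list per segment ranged from 0.0389% to 9.30% of counts in relapse (median 0.240%) and from 0% to 7.04% in naive stroma (median 0.0957%).

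The 4 keratins were above the highest naive segment in 8 (Krt14) to 11 (Krt6b) of 14 relapse segments, and none of the 29 segments carried the Cancer tag of the annotation. That tag was also absent from 9 of 13 naive and 9 of 22 relapse interface segments, so its absence says little about epithelial content. Krt14, the acidic keratin of basal keratinocytes, ranged from 0 to 16.6 (median 1.18) in naive and from 3.10 to 38.7 (median 19.2) in relapse stroma. All 14 relapse segments exceeded the naive median, and 11 of 15 naive segments lay below the lowest relapse segment. Its fitted difference was 1.95 (SE 0.428, limma adjusted p = 0.0143). Krt6a, a keratin of wounded and hyperproliferative epidermis, had 0 to 7.80 (median 0.955) in naive and 3.43 to 29 (median 16.3) in relapse stroma, with 10 of 14 relapse segments above the highest naive one. The fitted difference was 1.64 (SE 0.394, adjusted p = 0.0338). Krt6b, its close copy, had medians of 0.797 and 8.94 and a difference of 1.66 (SE 0.375, adjusted p = 0.0213). Krt16, their partner keratin, had medians of 2.08 and 14.1 and a difference of 1.64 (SE 0.414, adjusted p = 0.0473). In the 29 fits that left out 1 segment, Krt14 held its call in 29, Krt6b in 28, Krt6a in 21 and Krt16 in 8. Of 21 other alternatives, Krt6b passed the threshold in 13, Krt14 in 12, and Krt6a and Krt16 in 10 each. By tissue piece the Krt14 mean was 0.296 to 10.3 in naive and 3.10 to 29.6 in relapse stroma. These keratins have near-identical relatives, and how far tags separate them was not tested.

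Of 16 tested keratinocyte genes, 4 rose, 0 fell and the median difference was 0.27, beside -0.09 over all tested targets. The basal partner Krt5 had 1.26 (adjusted p = 0.255) and Krt17 had 0.98 (adjusted p = 0.144), both short of the threshold. The suprabasal keratins Krt1 (0.30) and Krt10 (-0.22) and the junction gene Dsp (0.12) did not pass. The list took 0.221% to 1.79% of counts in relapse segments (median 0.895%) and 0.0752% to 0.773% in naive segments (median 0.175%). Within relapse stroma the lowest Krt14 value was 3.10 in segment 6 and the highest 38.7 in segment 1. The part that epithelial cells inside the segments had in this was not tested.

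Col3a1 and Col1a1, which encode fibrillar collagen, had the largest fitted falls of the 13 lower targets. Col1a1, the alpha1 chain of type I collagen (GRCm38 chr11:94936224-94953042), ranged from 4.85 to 155 (median 84.3) in naive and from 0 to 162 (median 8.40) in relapse stroma. In 12 of 14 relapse segments it was below the naive median, yet 1 relapse segment was above the highest naive one. The fitted difference was -2.98 (SE 0.459, limma adjusted p = 1.67e-05). Col3a1, the chain of type III collagen, had 2.87 to 115 (median 59.97) in naive and 0 to 171 (median 4.22) in relapse stroma, with a difference of -3.06 (SE 0.487, adjusted p = 2.27e-05). Col1a2, the partner chain of Col1a1, had medians of 15.6 and 0.715 and a difference of -2.02 (SE 0.477, adjusted p = 0.0297).

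Both groups were mixed. Relapse segments 13, 8, 14 and 7 kept Col1a1 at 162, 105, 66.9 and 47.9, and the same 4 were the highest for Col3a1, at 171, 63.3, 45.5 and 15.1. Naive segments 5 and 6, the pair from naive piece 5, had only 4.85 and 11.5 Col1a1, and naive segment 13 had 21. By piece, Col1a1 averaged 92.2 to 97.8 in 3 naive pieces and 8.15 in naive piece 5, and 76.2 in relapse piece 2 against 7.23 to 28.6 in the other relapse pieces.

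The promoters of Col1a2 and Col3a1 are shown because both genes moved together, from 250 bases before to 50 after the start, from RefSeq on GRCm38.p6 in the gene's own direction. Col1a2 is chr6:4505368-4505667 on the plus strand, with capitals on the motif CCAAT and its reverse complement, and Col3a1 is chr1:45311288-45311587 on the plus strand, with capitals on TATAAA.
Col1a2: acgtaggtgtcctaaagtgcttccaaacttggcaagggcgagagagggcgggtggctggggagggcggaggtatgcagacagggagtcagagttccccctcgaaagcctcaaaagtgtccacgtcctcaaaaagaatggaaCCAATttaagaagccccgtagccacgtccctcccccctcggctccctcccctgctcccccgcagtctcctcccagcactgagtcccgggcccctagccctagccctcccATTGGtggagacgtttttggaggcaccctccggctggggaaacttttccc
Col3a1: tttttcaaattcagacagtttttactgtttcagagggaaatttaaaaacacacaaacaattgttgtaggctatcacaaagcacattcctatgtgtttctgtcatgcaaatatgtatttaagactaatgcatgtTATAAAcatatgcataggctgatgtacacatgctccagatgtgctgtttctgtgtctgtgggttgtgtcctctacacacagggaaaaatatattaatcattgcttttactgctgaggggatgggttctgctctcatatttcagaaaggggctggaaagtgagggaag
On either strand, CCAAT was found in 37.4% and TATAAA in 13.6% of 32851 RefSeq promoters of the same length. In Col1a2 the CCAAT letters begin 109 bases before the start (first base at position -109), and in Col3a1 the TATAAA letters begin at position -117. The matches describe the sequence only.

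Other matrix genes followed. Mmp2, a gelatinase that cuts matrix proteins, was at 0 to 21.3 (median 8.93) in naive and 0 to 8.76 (median 0) in relapse stroma, and all 14 relapse segments were below the naive median. Its difference was -1.85 (SE 0.389, limma adjusted p = 0.00802). The matricellular proteins Postn and Sparc differed by -1.85 (adjusted p = 0.0297) and -1.80 (adjusted p = 0.0473), and the secreted glycoprotein Fstl1 by -1.45 (adjusted p = 0.0262). Of 18 tested fibroblast and matrix genes, 7 fell and 0 rose, and 17 had a difference below 0, as did 65.6% of all tested targets. The median difference was -0.92, beside -0.09 for all tested targets. Dcn (-1.15, adjusted p = 0.328) and Lum (-1.01, adjusted p = 0.428), small proteoglycans of fibroblasts, missed the threshold, and Col6a3 had 0.03. The list took a median of 2.37% of counts in naive (0.222% to 4.32%) and 0.200% in relapse stroma (0.0777% to 5.13%). Svep1, an extracellular matrix protein gene (-1.17), and Aadacl4, a gene of the deacetylase-like family (-0.94), passed at adjusted p = 0.0473 each and were named after their values were seen. Aadacl4 was above the limit of quantitation in 6 naive and 0 relapse segments. Its highest naive value was 3.20, and 1 count was worth 2.52 per 10000 at the median relapse depth. Most relapse segments were thus too shallow to exceed that limit at the naive level. With 1 segment left out, Col1a1, Col3a1 and Mmp2 held their calls in all 29 fits, Fstl1 in 25, Postn in 18 and Col1a2 in 17. Sparc and Svep1 held theirs in 8 each and Aadacl4 in 6. Of 21 other alternatives, Col1a1 passed in 17, Col3a1 in 16, Mmp2 in 15, Fstl1 in 12, and Postn and Col1a2 in 11 each. Sparc passed in 9 and Svep1 in 8 of these 21, and Aadacl4 in 7 of 19.

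Apoe, which carries lipid and is abundant in macrophages (GRCm38 chr7:19696244-19701310), ranged from 0.955 to 114 (median 41.6) in naive and from 0 to 128 (median 3.26) in relapse stroma. The fitted difference was -2.67 (SE 0.542, limma adjusted p = 0.00468). Relapse segments 8, 13 and 14, high for the collagens, had 128, 92.0 and 64.2 Apoe, and the collagen-poor naive segments 5 and 6 had 1.62 and 0.955. The match was not complete: naive segment 10, with the highest naive Col1a1 (155), had 33.5 Apoe, below the naive median. Of 17 tested macrophage genes 1 fell (Apoe) and 0 rose, with a median difference of -0.22. The complement C1q chains C1qa (-0.81), C1qb (-0.63) and C1qc (-0.82) and the receptor gene Csf1r (-0.22) did not pass, nor did the macrophage surface gene Cd163 (0.02). Hp, haptoglobin, which binds free haemoglobin, had medians of 5.01 and 0 and a difference of -1.87 (SE 0.436, adjusted p = 0.0262). With 1 segment left out, Apoe held its call in all 29 fits and Hp in 22. Of 21 other alternatives, Apoe passed in 15 and Hp in 11.

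Of 4 tested MHC class II genes, Cd74 and H2-Aa fell and the others did not pass. Cd74, the invariant chain that guides class II molecules, ranged from 0 to 17.5 (median 3.08) in naive stroma, and in relapse 11 of 14 segments had no count above the floor and the highest value was 2.52. It exceeded the limit of quantitation in 11 naive and 0 relapse segments, and the fitted difference was -1.29 (SE 0.324, limma adjusted p = 0.0473). A segment with no count allows up to 3 counts, which is 7.57 per 10000 at the median relapse depth, so a single relapse segment could not show the loss of a target at the naive median of Cd74. H2-Aa, a class II alpha chain, had medians of 2.79 and 0 and a difference of -1.31 (SE 0.328, adjusted p = 0.0473). H2-Ab1 (-0.79, adjusted p = 0.443) and H2-Eb1 (-0.31, adjusted p = 0.888), which encode beta chains, missed the threshold, and the median of the list was -1.04. The Cd74 call held in 7 and the H2-Aa call in 8 of the 29 fits that left out 1 segment. The H2-Aa promoter (chr17:34287774-34288073, minus strand, GRCm38.p6) is shown because class II promoters are known for a Y box, here the letters CTGATTGG in capitals.
H2-Aa: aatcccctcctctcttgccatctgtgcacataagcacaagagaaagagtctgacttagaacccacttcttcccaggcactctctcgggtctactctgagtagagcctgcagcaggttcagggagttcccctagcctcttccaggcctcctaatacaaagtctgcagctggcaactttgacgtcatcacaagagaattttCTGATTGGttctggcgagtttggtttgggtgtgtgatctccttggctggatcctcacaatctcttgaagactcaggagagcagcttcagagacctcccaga
The letters begin 51 bases before the start (position -51), and their last 5 are the reverse complement of CCAAT. They occur on either strand in 4.10% of the 32851 promoters.

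Of 7 tested MHC class I genes 0 passed in either direction, and 3 were lower at an unadjusted p of 0.05. B2m, the light chain of class I molecules, had medians of 18.7 and 3.33 and a difference of -1.72 (SE 0.457, limma adjusted p = 0.0782). The remaining lists gave 0 calls by limma in this comparison. Their medians were -0.57 for 7 complement genes (4 lower at an unadjusted p of 0.05), -0.12 for 9 interferon-response genes (2 lower), 0.05 for 12 glycolysis and hypoxia genes (0), -0.05 for 7 tumour-associated myeloid genes (1 lower), -0.16 for 7 eicosanoid and tumour stem cell genes (1 higher), 0.21 for 3 neutrophil genes (0) and -0.35 for 3 T-cell genes (0). The exception at an unadjusted p in the eicosanoid list was Fabp5, an epidermal fatty acid carrier, with 0 to 11 (median 3.19) in naive and 4.13 to 37.5 (median 15.6) in relapse stroma and a difference of 1.35 (adjusted p = 0.203). Markers of other tissues also gave 0 calls by limma, with medians of -0.41 for 6 adipocyte genes (1 lower at an unadjusted p of 0.05), -0.05 for 8 skeletal muscle genes (0), -0.09 for 6 endothelial genes (0), -0.28 for 4 smooth muscle and pericyte genes (1 lower) and 0.08 for 2 mast-cell genes (0). The only erythroid gene tested had a difference of 0.67 (higher at an unadjusted p of 0.05), and 9 genes abundant in most cells had a median of -0.09 (1 lower). Iron handling had 1 call, Hp, among 5.

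**Figure D2:**
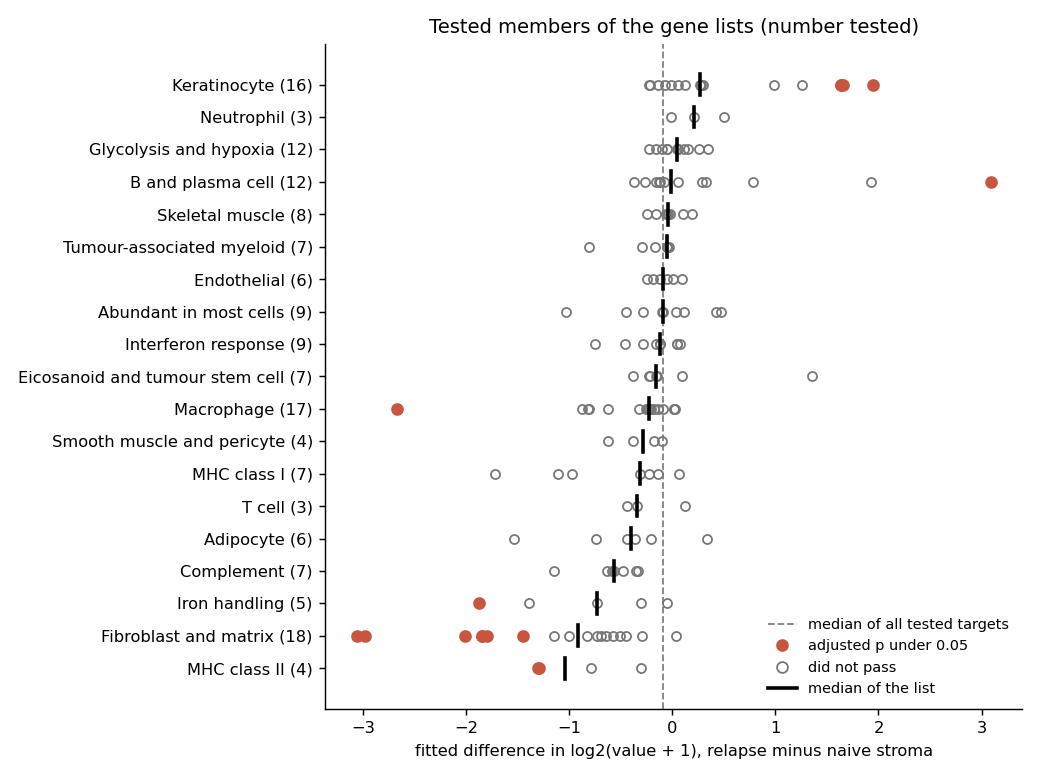
Fitted differences (relapse minus naive stroma, log2(value + 1)) of the tested members of 19 gene lists with at least 3 tested members; filled points passed an adjusted p of 0.05, bars mark list medians and the dashed line marks the median of all tested targets (-0.09). Filled points lie to the right for 4 keratins and Ighm and to the left for matrix genes, Apoe, Hp and MHC class II genes.

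The relapse segments with the most Ighm were not those with the most Col1a1. The 4 relapse segments with the most Ighm (10, 1, 9 and 6) had 2.82, 16.6, 9.11 and 7.23 Col1a1. The 4 with the most Col1a1 (13, 8, 14 and 7) had 35.1, 0, 5.35 and 15.1 Ighm. Segments 13 and 7 were thus above the relapse median of Ighm (14.8) as well. Relapse segments 3 and 5 had no Col1a1 count and 0 and 8.06 Ighm. The Col1a1-poor naive segments 5, 6 and 13 had 0.692, 1.91 and 1.37 Ighm, so a low collagen value in naive stroma did not come with a high Ighm value. This is a description of segments that share depth and slide, with no test.

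**Figure D3:**
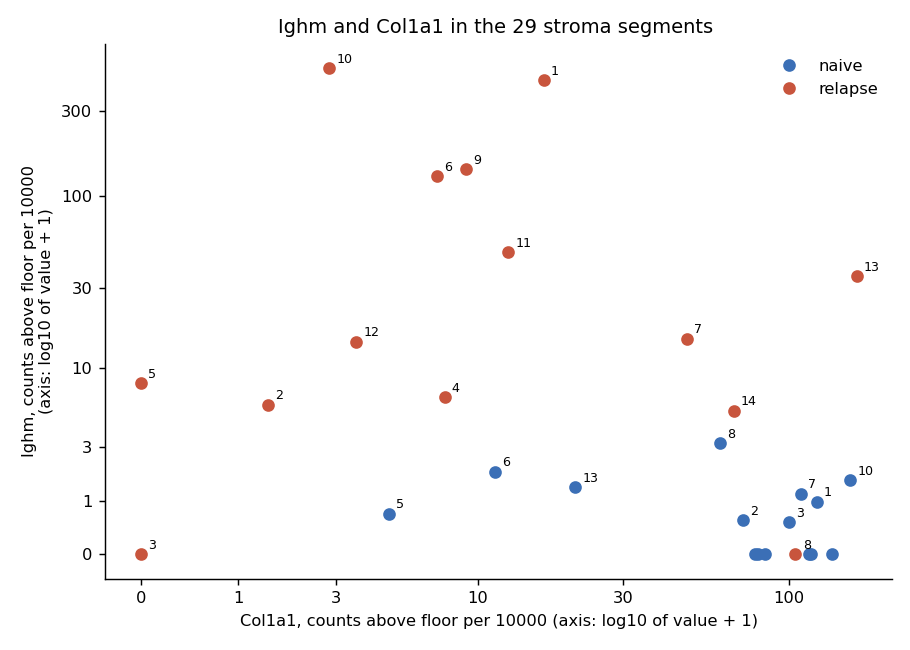
Ighm against Col1a1 (tag counts above the floor per 10000, both axes log10(value + 1)) in the 29 stroma segments, with segment numbers beside the points except naive segments without an Ighm count. Relapse segments 10, 1, 9 and 6 lie at the top with Col1a1 of 16.6 or less, and most naive segments lie at the bottom right.

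The stroma difference was set against that in the interface segments of the same slides and plates, 35 in number (22 relapse and 13 naive), by the interaction of stage and location in limma. Of 4901 targets tested, 160 passed (3.26%), 3 higher (0.0612%) and 157 lower (3.2%), and the median interaction was -0.15. Of the 18 stroma calls, 13 passed the interaction as well. The interaction contains the same stroma difference by which these 18 were called, so the overlap is no separate support. Apoe had the largest interaction, -3.65 (SE 0.653, adjusted p = 0.000337), followed by Col3a1 at -3.08 (SE 0.572, adjusted p = 0.00034), Col1a1 at -2.76 (SE 0.553, adjusted p = 0.000794), Col1a2 at -2.46 (adjusted p = 0.00129) and B2m at -2.44 (adjusted p = 0.00129). Col1a1 had a median of 84.3 in naive stroma, against 8.57 at the naive interface, 21.6 at the relapse interface and 8.40 in relapse stroma. Location went with tissue piece on the naive slide: pieces 1, 3 and 4 held 13 of the 15 stroma segments but 1 interface segment, and the other 12 interface segments came from pieces 2 and 5. The interface segment of naive piece 1 had 167 Col1a1 and 120 Apoe, like stroma, and stroma of naive piece 5 averaged 8.15 Col1a1, like the interface, so location and piece cannot be told apart there. The relapse slide was uneven as well: piece 1 held 14 of the 22 interface but 2 of the 14 stroma segments. Relapse piece 3 held 7 interface and 9 stroma segments. Of 18 fibroblast and matrix genes 13 passed the interaction, all lower. On counts per 10000 the interaction called 7 targets, and without naive piece 5, relapse piece 1 or relapse piece 3 it called 18, 21 and 17.

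The immunoglobulin and keratin differences did not separate the locations in the same way. Ighm had an interaction of 0.07 (SE 0.693, limma adjusted p = 0.972) and a difference at the interface of 3.61 (SE 0.570, adjusted p = 1.91e-06). Its interface median was 50.3 in relapse and 1.64 in naive segments. No Ighm count above the floor was seen in 5 of 22 relapse and 1 of 13 naive interface segments. At the interface 53 targets passed (1.08%). Igkc was among them with 3.93 (adjusted p = 5.17e-06), and its interaction was -1.71 (adjusted p = 0.236). Krt14 differed by 2.98 at the interface (adjusted p = 4.02e-07), with an interaction of -0.95 (SE 0.544, adjusted p = 0.391). Krt16 differed by 3.40 at the interface, and its interaction of -1.59 passed narrowly (adjusted p = 0.0496). Krt6a (-1.33, adjusted p = 0.117) and Krt6b (-0.95, adjusted p = 0.29) did not pass the interaction. A p that misses the threshold does not show that the differences are alike. The Cancer tag was carried by 13 of 22 relapse and 4 of 13 naive interface segments. Its part in the interface differences was not tested.

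**Figure D4:**
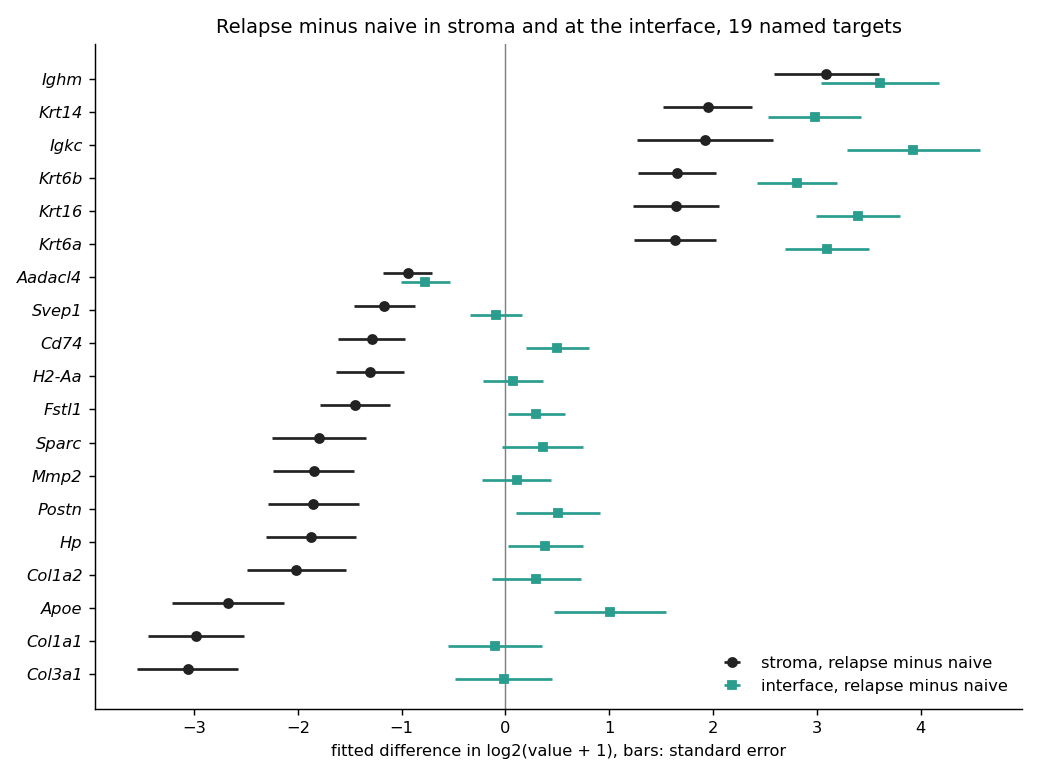
Fitted differences relapse minus naive (log2(value + 1), bars are standard errors) for the 19 named targets in stroma (circles) and at the interface (squares). Ighm, Igkc and the 4 keratins are above 0 at both locations, while the collagens are near -3 to -2 in stroma and near 0 at the interface.

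Plate could be looked at only in the acute slide, whose 9 stroma segments were split between plates G (4) and H (5). Col1a1 in acute stroma was 8.51, 308, 73.1 and 33.2 on plate G and 2.18, 9.19, 13.8, 10.4 and 60.7 on plate H. Apoe was 9.13, 36.02, 33.1 and 28.4 on plate G and 2.86, 7.91, 13.6, 2.83 and 9.17 on plate H. Plate went with tissue piece here. Piece 1 of the acute slide held 3 of the 4 plate G segments, at 308, 73.1 and 33.2 Col1a1, and 1 plate H segment, at 60.7, while the plate G segment from piece 4 had 8.51, within the range of the other plate H segments. In piece 1 Apoe was 36.02, 33.1 and 28.4 on plate G and 9.17 on plate H. The parts of plate and piece in the stroma difference were not tested. Ighm was 0.773, 0, 3.46 and 4.74 on plate G and 1.5, 6.04, 0.527, 0.945 and 0.629 on plate H, where relapse stroma on the same plate reached 522. Krt14 was 0.494 to 4.74 on plate G and 0.954 to 3.55 on plate H. With acute stroma added and plate as a covariate, the difference was 3.30 for Ighm, 2.05 for Krt14, -1.70 for Col1a1 and -1.27 for Apoe, and limma called 0 targets (252 at an unadjusted p of 0.05).

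**Figure D5:**
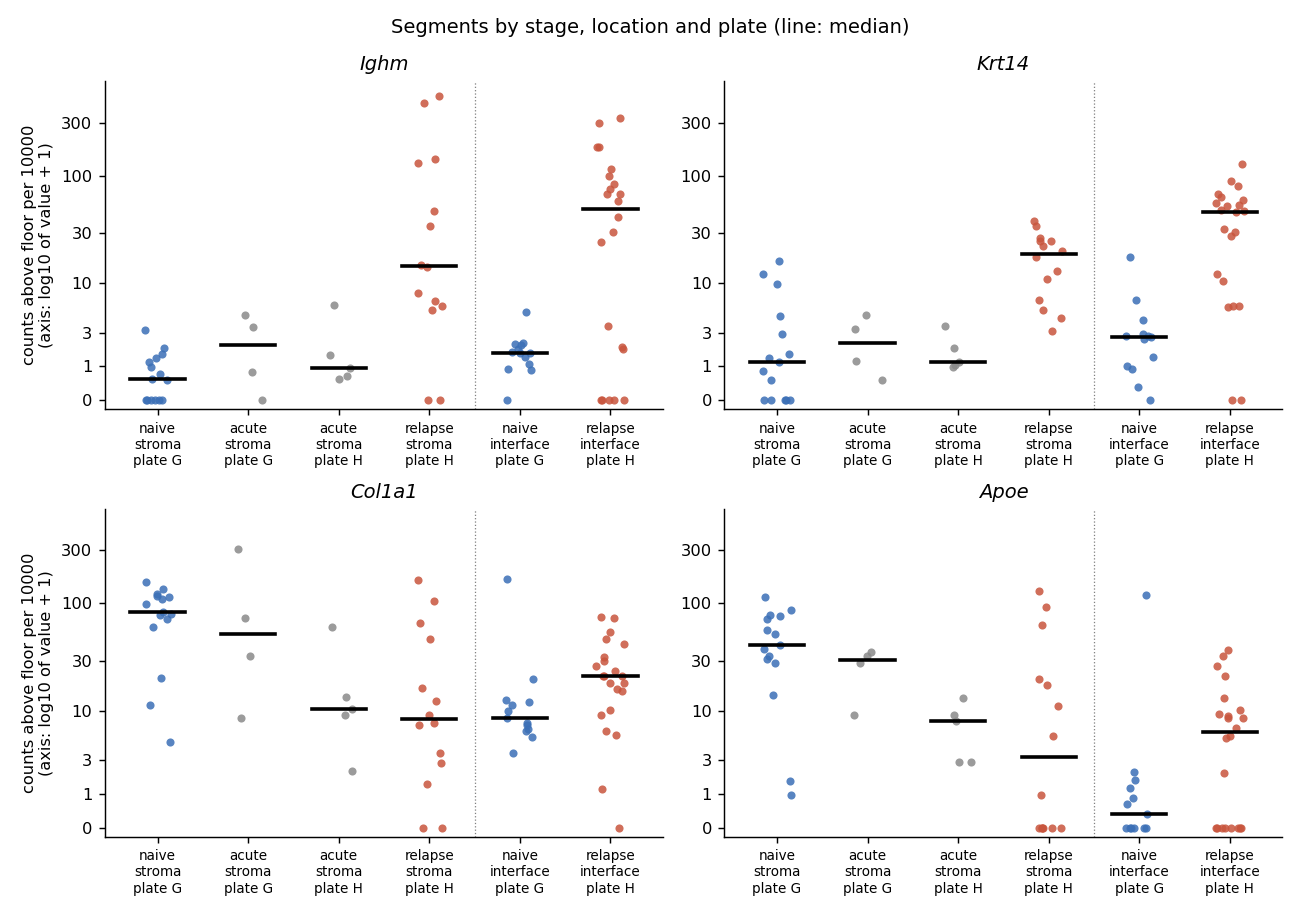
Tag counts above the floor per 10000 (axis log10(value + 1), line at the median) of Ighm, Krt14, Col1a1 and Apoe by stage, location and plate. Col1a1 and Apoe medians step down from plate G to plate H within acute stroma, where plate goes with tissue piece. Ighm stays at or below 6.04 in all acute stroma segments and is high in many relapse segments at both locations. No Ighm count above the floor is seen in 2 of 14 relapse stroma and 5 of 22 relapse interface segments.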

How the data were processed

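Tags of a GeoMx mouse whole-transcriptome panel were sequenced per segment, per the labels' protocols. The build mm10 and Seurat stand in the submitters' processing notes; the aligner and counter are not given in the sources used here. The deposited matrix holds normalised signal: the authors divided each tag count by a deposited upper-quartile factor, a ratio. Signal times factor was whole for 99.986% of values (tolerance 1e-06), with a floor of 1 whose origin is not given. The geometric SD of the negative probes is likewise a deposited ratio. Depth was the summed tag count minus the floor of each target. The limit of quantitation was the larger of 2 counts and the negative probes' geometric mean times their geometric SD to the power 2, and targets above it in at least 10% of the 29 segments were tested (6220 of 19962). Values were log2(signal + 1), compared with limma 3.58.1 in R 4.3.3 (lmFit, eBayes with trend, two-sided, log2 depth as a covariate), with Benjamini-Hochberg adjustment at 0.05. The interaction used 1 mean per stage and location. Depth was compared by permutation (scipy 1.17.1). The fit was tested on simulated data. No count model was used: the deposited values are normalised signal, and the recovered counts were not fitted with one.

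The rule for named targets took Ighm, Igkc, Col1a1 and Apoe, the 10 largest rises and the 10 largest falls past the threshold above the median level, list members past the threshold, and up to 5 interaction targets in each direction. The segments compared and the gene lists were chosen with earlier results of these data known. Of 19962 target names, 19822 matched a RefSeq symbol (GRCm38.p6), from which places and promoters come. Alternatives changed the depth covariate, scaling, pseudocount (0.5 and 4), filter, thinning to 2000 counts, tissue pieces, acute stroma with plate, and all 89 segments.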

Additional observations from a re-analysis of the deposited data

Results flagged for a closer look

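The difference between relapse and naive segments was not the same in stroma and at the interface for 17 named targets, by the limma interaction at an adjusted p of 0.05. It was lower in stroma for Apoe (-3.65), Col3a1 (-3.08), Col1a1 (-2.76), Col1a2 (-2.46), B2m (-2.44), Hp (-2.41), Postn (-2.31), Sparc (-2.22), Mmp2 (-2.05), Cd74 (-1.90), Fstl1 (-1.71), Krt16 (-1.59), H2-Aa (-1.40) and Svep1 (-1.07). It was higher in stroma for Srsx (1.46), LOC118568634 (0.79) and Gm52800 (0.71), the only targets past the threshold in that direction. Segments share animals and slides, so these p-values are too small. Location goes with tissue piece on the naive slide and in part on the relapse slide. The result also depended on the scale. On the signal scale 160 targets passed this interaction, and far fewer passed on counts per 10000. The median interaction over all tested targets changed sign between these scales. Which of the 17 passed on counts per 10000 is not given here.

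In acute stroma, 1 segment stood apart from the others of its group in 8 of 27 groups of values looked at. The limit used sets about 1 in 20 groups apart only where values are independent and normally distributed. These groups overlap and hold counts from segments of unlike depth, so the 8 cannot be judged against that share. Over all 9 segments the values that stood apart were Col1a1 (308 counts per 10000), Col3a1 (111) and Krt6a (2.62). On plate G they were Igkc (6.42) and Krt6a (1.24), where the other 3 segments had no Krt6a count above the floor, so any count would stand apart. On plate H they were Ighm (6.04), Col1a1 (60.7) and Col3a1 (41.9). The highest acute Col1a1 value of 308 exceeded every naive and relapse stroma segment.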

How the results depend on the processing

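Over the alternatives 0 of 948 fitted differences of the named targets changed sign. All of these targets but Igkc had passed the threshold in the same segments, so a change of sign was unlikely from the start. The comparison called 18 targets. The count was 34 without the depth covariate, 92 with scaling to the same total and no depth covariate, 5 with a pseudocount of 4, 4 without the filter, 39 with the filter at 25% (921 targets tested), 6 after thinning to 2000 counts (3590 tested, 3 shared with the 18), 5 with the tissue piece as a random block, 74 with all 89 segments and 29 with only naive segments no deeper than the deepest relapse segment. It was 0 by limma with acute stroma and plate as a covariate (252 at an unadjusted p of 0.05) and 0 with 1 mean per tissue piece (284 at an unadjusted p of 0.05; 4 pieces against 4). Leaving out 1 piece or 1 segment gave 0 to 29 calls. Fewer targets tested, or fewer counts after thinning, differ by construction; the cause of the other shifts was not tested. Without the depth covariate the median of all targets was 0.04 instead of -0.09. The interaction called 160 targets, 7 on counts per 10000 (median 0.03 instead of -0.15), 79 with pieces as a random block, and 17 to 213 without 1 piece.

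The lower depth of relapse stroma was -1.87 over means per piece (p = 0.0571, exact permutation test of 4 against 4 pieces, two-sided, smallest possible p 0.0286), past the threshold over segments but not over pieces. Planned fits with count models were not run: the deposited values are normalised signal, and the recovered counts were not fitted with one. The mean per piece and the depth-matched and single-segment alternatives were chosen after seeing the data. No paired analysis was possible because the labels number no segments across groups. Depth limits low targets: 1 count was worth 2.52 per 10000 at the median relapse depth.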

Other observations

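LOC118568634, an uncharacterised RefSeq locus and one of 3 targets with a higher interaction in stroma, was abundant in every stroma segment. It ranged from 31.1 to 173 counts per 10000 (median 76.4) in naive and from 105 to 334 (median 216) in relapse stroma, with a fitted stroma difference of 0.62 (SE 0.189, limma adjusted p = 0.211) that did not pass over the 29 segments. In the fit with the interface segments the stroma difference was 0.81 (adjusted p = 0.00147). Srsx had medians of 1.5 and 8.41 and a fitted stroma difference of 1.06 (limma adjusted p = 0.511), and 1.26 (adjusted p = 0.0444) in the fit with the interface segments.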
